A study of Rattus norvegicus with 28 samples.

Results

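Untreated INS-1 cells that carry the Med14 S983A substitution were compared with untreated WT INS-1 cells, both at CON. The comparison rests on 4 of the 28 libraries, 2 per genotype, taken as the CON columns of the deposited table of TPM, a level scaled for transcript length and library size. INS-1 cells derive from a rat insulinoma and release insulin. In Med14 S983A cells, the substitution named puts alanine in place of a serine of Med14 through CRISPR knock-in with a repair template, followed by puromycin selection and growth of sorted single cells. The study's methods name more than one independently made knock-in line. The labels do not say which line gave a library, or whether the WT cells had passed through the same selection and cloning. Effects of the substitution and of the line therefore cannot be told apart. Neither genotype received exendin-4 (Ex-4) or forskolin (FSK) at CON, and the labels give both the same wash and change to serum-free medium. The other 24 libraries came from cells given 10 nM Ex-4 or 10 µM FSK for 1, 8 or 16 h. They served as a repeat of the genotype comparison in other samples. The choice of transcript, the filter on level and the spread of each gene were taken from all 28 libraries. The CON and treated calls are therefore not separate tests. The question at CON is how the cells of the 2 genotypes differ before any cAMP signal is given.

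Mediator is a large complex that carries signals from DNA-bound transcription factors to RNA polymerase II, and Med14 is the scaffold that joins its modules. That serine lies in a motif recognized by protein kinase A, the kinase that cAMP activates. In beta cells, cAMP raised by the GLP-1 receptor acts on insulin secretion at once and on transcription through CREB and its coactivators. Beta cells also depend on glucose uptake through Slc2a2, on the ATP-sensitive potassium channel encoded by Kcnj11 and Abcc8, and on an endoplasmic reticulum (ER) able to fold large amounts of proinsulin.

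The 4 CON libraries held 42551133 to 51097557 fragments, with 0.818% to 0.953% of them from the ERCC spike-in, synthetic RNA added in a fixed amount. Between 10172 and 10249 genes reached 1 TPM. Pearson r between the replicates of a genotype was 0.999 in WT and 0.998 in Med14 S983A. Between replicates, 13 genes in WT and 11 in Med14 S983A differed by over 1.5-fold on the log2(TPM + 1) scale, against 1999 genes between the genotype means. The samples are bulk RNA, so fewer cells of a kind and less RNA per cell cannot be told apart. The study's methods speak of biological replicates, but the labels do not say whether the 2 libraries of a group came from separate cultures or lines, so the p-values measure the spread between these libraries, whatever its source. Of the 12 beta cell markers in the table, 11 were at 1 TPM or more in all 4 libraries, and Ucn3, a marker of mature beta cells, was under 1 TPM. Markers of delta, PP and epsilon cells summed to 0.129 to 0.431 TPM, endothelial markers to 0.086 to 0.449 TPM and leukocyte markers to 0.678 to 1.41 TPM. The pan-leukocyte gene Ptprc and the endothelial gene Cdh5 were at 0 in all 4. Alpha cell markers summed to 185 and 186 TPM in WT and to 32.5 and 34.9 TPM in Med14 S983A, while Irx1, Irx2, Ttr and Loxl4 were each under 1 TPM. Acinar markers summed to 31.2 and 27.9 TPM in WT and to 64.2 and 63.4 TPM in Med14 S983A, with the digestive enzyme genes Prss1, Pnlip, Cela2a and Amy2a3 at 0. Duct markers (294 and 295 against 185 and 180 TPM) and stromal markers (84.1 and 86.6 against 54.8 and 59.8 TPM) were lower in Med14 S983A, with 1 called gene each (Epcam and Thy1). The part of these marker genes in the results was not tested.

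Med14 transcript itself (NM_001191727, rn6 chromosome X, 10964035 to 11080894) was at 21.5 and 20.3 TPM in the WT libraries and at 19.6 and 20.3 TPM in the Med14 S983A libraries. The groups overlapped at 20.3 TPM, and the log2 difference was −0.06 (SE 0.07, limma adjusted p 0.40). A single changed codon leaves the transcript countable, so this level is no check of the genotype labels. Here and below a log2 difference is that of log2(TPM + 1), Med14 S983A minus WT. A gene was called at a limma adjusted p under 0.05 and a fold above 1.5.

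Of 10275 genes tested, 1997 were called (19.4%), 852 higher and 1145 lower in Med14 S983A. Many of the calls lay side by side. In rn6 gene order, 9 runs of neighbouring genes shared a shift, 4 of them higher and 5 lower in Med14 S983A. A run was at least 20 tested genes in a row for which the median over a gene and 25 neighbours on each side exceeded 0.3 in size with 1 sign. Run genes numbered 928 (9.03% of those tested) and took 575 calls (28.8%). Within them 62.0% of genes were called, against 15.2% of the 9347 genes outside. Since these CON values defined the runs, their size at CON is a description and was not tested.

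The higher runs lay on chromosomes 5, 9 and 11. The run on chromosome 9 (73378060 to 121931564, 154 genes) had a median log2 difference of 0.85, and 124 of its genes were called higher. On chromosome 5 a run from 113548913 to 145191953 (192 genes) had a median of 0.50, and another from 154650632 to 173681091 (142 genes) one of 0.84. The short run on chromosome 11 (87446261 to 90406730, 28 genes) had a median of 0.56. Among the lower runs, chromosome 4 (160530726 to 184165540, 57 genes) had a median of −0.99 and chromosome 15 (120019 to 18616589, 42 genes) of −0.90. For chromosome 12 (24682050 to 52596076, 193 genes) it was −0.65, for chromosome 17 (372556 to 16420077, 88 genes) −0.62 and for chromosome 16 (73681422 to 81783047, 32 genes) −0.36. Each run but that of chromosome 16 had over 90% of its genes on 1 side of 0, from 90.6% to 96.4%, and chromosome 16 had 87.5%. The shift was alike in strongly and weakly expressed genes. On chromosome 9 the median was 0.86 in the more expressed genes and 0.82 in the others, and on chromosome 12 these were −0.67 and −0.62. The gap was widest on chromosome 15, with −1.05 and −0.76.

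The treated libraries, which entered the search for runs only through the choice of transcript and the filter on level, carried the same shifts. On chromosome 9 the median genotype difference was 0.81 to 0.91 over the 6 treated comparisons, and on chromosome 5 it was 0.46 to 0.55 and 0.80 to 0.88. Chromosome 12 gave −0.66 to −0.57 and chromosome 17 −0.61 to −0.52, while chromosome 15 gave −0.91 to −0.78 and chromosome 4 −1.04 to −0.77. Chromosome 11 ranged from 0.42 to 0.59 and chromosome 16 from −0.34 to −0.20. When the runs were sought on the mean of the treated comparisons, 8 were found with 889 genes, of which 873 were also in the runs found at CON. The chromosome 16 run was not among them. In WT cells the 6 treatments moved the run genes little relative to genes outside, by −0.14 to 0.25 over all runs, with the largest value on chromosome 11.

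**Figure D1:**
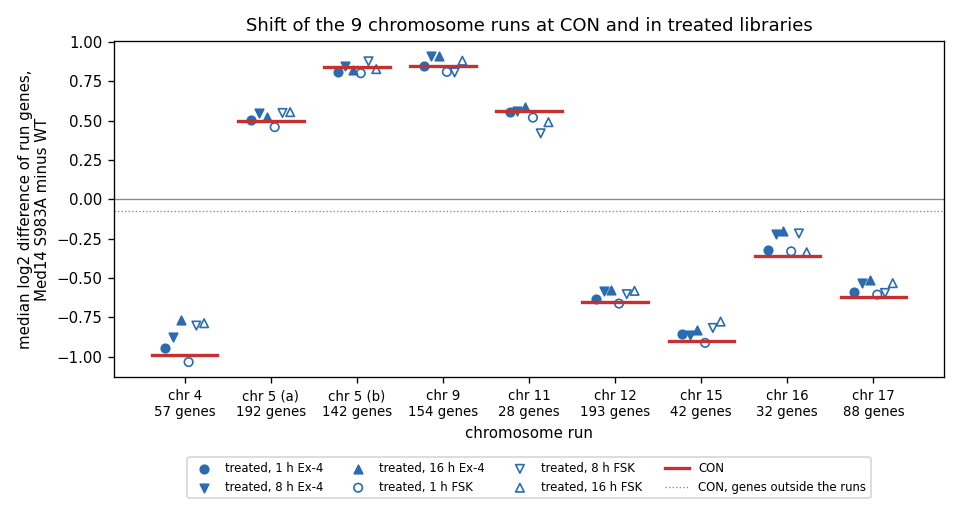
Median log2 difference between Med14 S983A and WT (vertical axis) over the genes of each of the 9 chromosome runs (horizontal axis, with the number of genes). Red bars are CON, blue symbols the 6 treated comparisons (filled for Ex-4, open for FSK), and the dotted line is the CON median of genes outside the runs, −0.07. The treated values stay on the side of 0 that the run had at CON.

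Several genes of interest sit in these runs, each shifted in the direction of its run. They lay 0.06 to 0.56 from the median of the run, which is under 1.5-fold. Iapp, the amyloid peptide released with insulin, was at 7007 and 6973 TPM in WT and at 3213 and 3328 TPM in Med14 S983A, a log2 difference of −1.10 (SE 0.04, limma adjusted p 6.4e-17) that lay 0.11 below the median of its chromosome 4 run. Cdkn1b, an inhibitor of cyclin-dependent kinases, was lower by 1.35 on the log2 scale in the same run, 0.36 beyond its median. The Mediator subunit Med21 (−1.07) was 0.08 below it. On chromosome 9, the granule protein Scg2 (1.23) and Pam, which amidates peptides (1.41), exceeded the median of their run by 0.38 and 0.56. Sdhb, a subunit of succinate dehydrogenase (0.90), lay 0.06 above the median of the second chromosome 5 run. The receptor kinase Grk3 (−1.10) on chromosome 12 was 0.45 below its run, and the potassium channel Kcnk16 (−1.37) on chromosome 15 was 0.47 below its own.

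Other genes of the runs stood far from their neighbours. Over the 9 runs, 157 genes (16.9%) lay over 1.5-fold from the median of their run. Cyp4a8, a fatty acid hydroxylase in the first chromosome 5 run, was at 41.9 and 40.8 TPM in WT and at 9.28 and 8.66 TPM in Med14 S983A, a log2 difference of −2.09 against the direction of the run. Sdf2l1, an ER chaperone cofactor on chromosome 11, went the way of its run but 1.64 beyond its median, from 50.1 and 46.4 TPM to 219 and 230 TPM (log2 difference 2.20). The genes named next were called and at a mean of 10 TPM or more over the 4 CON libraries. Among the furthest in the direction of a run were Padi2 (2.65), which converts arginine to citrulline, and the phosphatase gene Alpl (1.76) on chromosome 5. On chromosome 9 they were Myl12a (2.04), a myosin light chain, and the chemokine receptor gene Ackr3 (1.95). On the lower side they were Rflna (−3.42) and Castor2 (−1.88) on chromosome 12, Gucy2c (−2.41) and Fam234b (−2.15) on chromosome 4, Unc5a (−2.32) and the synuclein gene Sncb (−1.73) on chromosome 17, and Anxa7 (−1.40) and Mrps16 (−1.39) on chromosome 15. Gas6, a ligand of receptor tyrosine kinases in the weak chromosome 16 run, fell from 220 and 206 TPM to 43.3 and 45.0 TPM (log2 difference −2.25). The next of that run at 10 TPM or more, Slc20a2, had −0.71. Ank1 of the same run, at a mean of 1.44 TPM over all 28 libraries, had −2.08. Eva1b (3.83) and Efcab1 (1.18) were further examples on chromosomes 5 and 11.

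The remaining counts concern the 9347 genes outside the runs, where 538 were higher (5.76%) and 884 lower (9.46%) in Med14 S983A. The fold exceeded 4 for 50 of the higher and 117 of the lower genes. Their median log2 difference was −0.07 in TPM. The balance of directions depended on the scaling. It was 708 higher and 713 lower when each library was centred on its median, and 925 higher and 607 lower with scaling on ERCC, which moved the median of these genes to 0.11. The medians of several lists below are therefore also given relative to the median of all genes outside the runs. Without a fold minimum, 2168 of the 9347 genes were higher and 3773 lower at a limma adjusted p under 0.05. Counts of list members at an unadjusted p below are given without a share of all genes at that threshold. That share is at least as large as at the adjusted p, so these counts alone are not results about a list.

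The genotype difference returned in the treated libraries. Of the 538 genes higher at CON, 171 (31.8%) were also called higher in all 6 treated comparisons, where the share of all genes outside the runs called higher in all 6 was 1.98%. Of the 884 lower genes, 354 (40.0%) were called lower in all 6, against 3.90% of all genes outside the runs. The sign was the same in all 6 for 428 of the higher (79.6%) and 741 of the lower genes (83.8%), and 16 and 29 genes were called in the opposite direction in at least 1 treated comparison. Across the 9347 genes, which are not independent replicates, Pearson r of the CON difference with that in treated cells was 0.970 after 1 h of Ex-4 and 0.942 after 1 h of FSK. It was 0.925 at 8 h and 0.847 at 16 h of Ex-4, and 0.700 and 0.677 at 8 and 16 h of FSK. All these comparisons read the same transcript models and the same pair of genotypes, and their calls share an estimate of the spread of each gene.

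**Figure D2:**
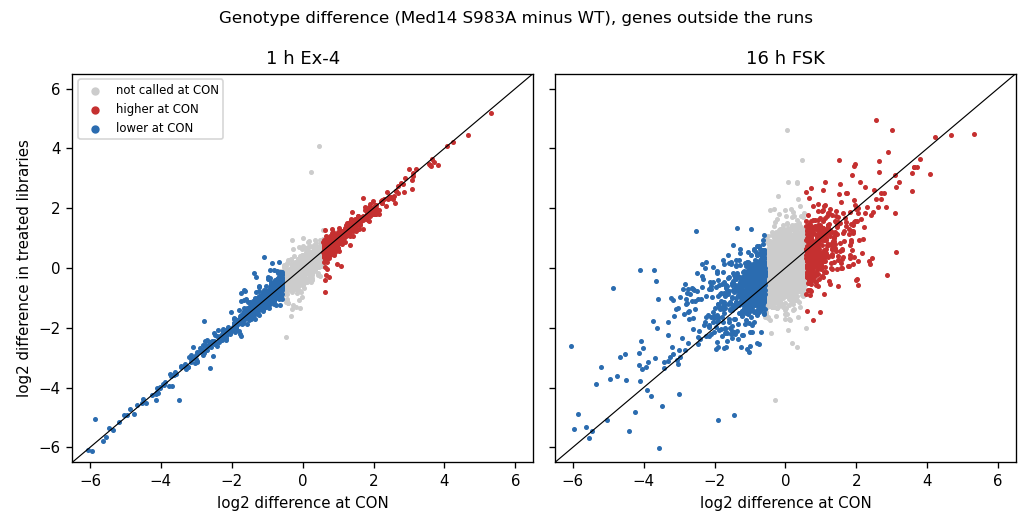
Genotype difference at CON (horizontal axis, log2) against the genotype difference in treated libraries (vertical axis, log2) for genes outside the runs, after 1 h of Ex-4 and 16 h of FSK. Red and blue points were called higher and lower at CON and the line marks equal values. Points follow the line closely at 1 h of Ex-4 (r 0.970) and are spread around it at 16 h of FSK (r 0.677).

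The largest differences outside the runs were close to presence against absence. Tnfsf12, a cytokine of the TNF family, was at 0.083 and 0.045 TPM in WT (3 and 2 fragments) and at 39.3 and 43.1 TPM in Med14 S983A (1657 and 1822 fragments). Def6, a guanine nucleotide exchange factor, had 11.5 and 6.0 fragments in WT and 1499.5 and 1493.5 in Med14 S983A. The reverse held for Ccnd2 (NM_022267, rn6 chromosome 4, 159674885 to 159697207), a D-type cyclin that drives entry into the cell cycle and lies just outside the chromosome 4 run. Its levels were 49.9 and 46.8 TPM in WT and 0.039 and 0.064 TPM in Med14 S983A, where the libraries held 1.5 and 2.5 fragments, with 1 read of a pair counting as 0.5. Selenop, a secreted carrier of selenium, went from 29.0 and 29.5 TPM to 0.036 TPM in both libraries (2 fragments each). Gpx3, a secreted glutathione peroxidase that contains selenocysteine, went from 96.3 and 91.4 TPM to 1.00 and 0.829 TPM. Ret, the receptor for glial-derived neurotrophic factors, went from 54.6 and 51.1 TPM to 0.469 and 0.464 TPM. In each of these genes the replicates lay close together relative to the difference between genotypes, for which the genes were chosen.

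In all, 12 genes outside the runs were under 0.5 TPM in both WT libraries and at 5 TPM or more in both Med14 S983A libraries, and 44 showed the reverse. All 12 of the first kind and 41 of the second were called in the same direction in all 6 treated comparisons. These bounds of 0.5 and 5 TPM were chosen after values were seen. Beside Gpx3, Ccnd2, Selenop and Ret the largest falls among genes at 10 TPM or more were those of Pgm5, a protein related to phosphoglucomutase, the calcium channel subunit Cacng7, the Wnt antagonist Dact2, the Myc relative Bmyc, the adhesion protein Sdk2, Tmem179 and the protocadherins Pcdhb5 and Pcdhb10, with log2 differences of −6.06 to −4.75. Beside Tnfsf12 and Def6 the largest rises were those of the serine protease Tmprss9 (3.72), the collagen-processing enhancer Pcolce (3.64), the interleukin receptor Il17rc (3.62), Ins2 (3.57), the calmodulin regulator Pcp4 (3.20), the urate transporter Slc2a9 (3.12), Ptgr1, which inactivates prostaglandins (3.12), S100a5 (3.08), the fibrinogen chain Fgb (2.90) and moesin, Msn (2.82). Where a group is under 1 TPM the size depends on the added TPM. With 0.1 TPM added in place of 1, Ccnd2 had −8.33 and Tnfsf12 7.98 in place of −5.55 and 5.31.

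**Figure D3:**
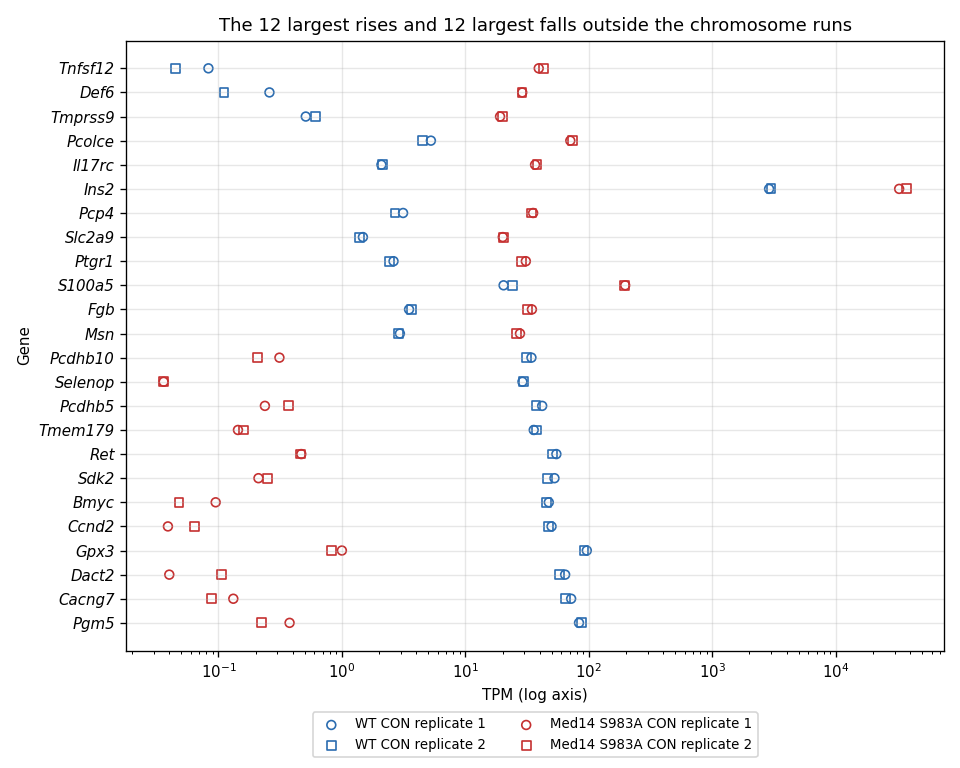
TPM in each CON library (horizontal axis, log scale) for the 12 top rises and the 12 top falls among genes outside the runs. Blue symbols are WT and red symbols Med14 S983A, with circles for replicate 1 and squares for replicate 2. The genes were chosen for a large difference among those at 10 TPM or more, so the lack of overlap follows from the choice.

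The beta-protocadherins, adhesion proteins coded by neighbouring single-exon genes on chromosome 18, were mostly lower, in a stretch too short to be a run. Of 11 members listed, 8 were tested, and 7 were called lower and 1 higher, against 9.46% and 5.76% of all genes outside the runs. Pcdhb5 was at 41.9 and 37.4 TPM in WT and at 0.238 and 0.371 TPM in Med14 S983A. Pcdhb3 (−4.50), Pcdhb2 (−3.32), Pcdhb4 (−3.31), Pcdhb12 (−1.52) and Pcdhb21 (−0.79) were also lower, whereas Pcdhb20 rose by 1.56, from 0.519 and 0.559 TPM to 3.84 and 3.24 TPM. These genes are similar in sequence, so part of their reads may have been divided among them. The keratin genes Krt8 and Krt18, which code for partners in 1 filament and are neighbours on chromosome 7, were both lower. Krt18 fell from 541 and 548 TPM to 26.9 and 28.6 TPM (log2 difference −4.25), and Krt8 from 2804 and 2842 TPM to 1353 and 1335 TPM (−1.07). The protocadherins as a family were chosen for description after values were seen.

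Measured in TPM, the largest gain among genes outside the runs was that of Ins2 (NM_019130, rn6 chromosome 1, 215856967 to 215858034), 1 of the 2 rat insulin genes. It was at 2885 and 2991 TPM in WT and at 32620 and 37516 TPM in Med14 S983A, 11.9 times the WT mean (35068 ± 3462 against 2938 ± 75.1 TPM, SD, n = 2 each; log2 difference 3.57, SE 0.06, limma adjusted p 2.3e-25). Ins2 took up 0.288% and 0.299% of all TPM in the WT libraries and 3.26% and 3.75% in the Med14 S983A libraries. Ins1 was at 34501 and 33716 TPM in WT and at 38834 and 42395 TPM in Med14 S983A, a log2 difference of 0.25 (SE 0.05) that was under 1.5-fold. The pair are close copies and how their shared reads were divided is uncertain. In the treated libraries the Ins2 difference was 2.59 to 3.56, and in all 6 comparisons it was called. Ins1 gained 6506 TPM without being called. The other called genes outside the runs with the largest gains in TPM were Scd2, the ER chaperone Hspa5, the ribosomal protein gene Rps14 (1223 and 1337 against 2182 and 1991 TPM), the phosphatase inhibitor Ppp1r1a (594 and 603 against 1089 and 1150 TPM) and Csrp2 (1.08). The largest losses among called genes outside the runs were those of Krt8, Cd63, which marks late endosomes (−1.01), Chgb, Scg5, Krt18 and Ndufa4 of the respiratory chain (−1.25).

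Genes of the secretory granule moved in both directions. Outside the runs, 2 of 14 were higher and 4 lower (42.9% called, against 15.2% of all genes outside), with a median log2 difference of −0.02, 0.05 above that of all genes. Chgb, the granin chromogranin B that helps form granules, fell from 1360 and 1341 TPM to 176 TPM in both Med14 S983A libraries (log2 difference −2.93, SE 0.06, limma adjusted p 6.2e-24). Vgf, a granin cut into neuropeptides, fell from 367 and 360 TPM to 51.9 and 59.4 TPM (−2.69). Scg5, the chaperone of the proinsulin convertase Pcsk2, fell from 1420 and 1449 TPM to 480 and 466 TPM (−1.60), while Pcsk2 itself differed by 0.03. Ptprn2, a phosphatase-like granule membrane protein, had −1.04. Pcsk1, the other proinsulin convertase, rose from 103 and 96.8 TPM to 173 and 152 TPM (0.70). Chga, the most abundant granin, was at 5978 and 5872 TPM in WT and at 4771 and 5135 TPM in Med14 S983A, under the fold minimum. The falls of Chgb, Vgf, Scg5 and Ptprn2 were called in all 6 treated comparisons. In the exocytosis machinery 3 of 20 genes outside the runs were higher and 3 lower, where 15.2% of all genes outside were called. Rab27a, which docks granules (1.48), the calcium sensor Doc2b (1.22) and Snap25 of the fusion complex (0.64) were higher, and the calcium sensor Syt5 (−1.85) and Rph3al (−0.71) were among those that were lower.

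Among ion channels and pumps of insulin secretion, more genes were called lower than higher. Outside the runs, 9 of 21 were called lower and 2 higher (52.4% called, against 15.2% of all genes outside), and the median log2 difference of −0.30 was 0.23 below that of all genes. Abcc8 and Kcnj11, neighbouring genes for the subunits of the ATP-sensitive potassium channel that glucose metabolism closes, were both lower. Abcc8 was at 249 and 227 TPM in WT and at 117 and 121 TPM in Med14 S983A (log2 difference −0.99), and Kcnj11 at 233 and 219 against 115 and 122 TPM (−0.93). Atp2a3, a pump that returns calcium to the ER, fell from 511 and 478 TPM to 127 and 129 TPM (−1.94). Cacna1a, the pore of P/Q-type calcium channels (−1.79), the channel subunit Cacnb3 (−0.96), the L-type pore Cacna1c (−0.66), the IP3 receptor Itpr1 (−1.01), the potassium channel Kcna2 (−1.05) and the sodium channel Scn3a (−0.65) were the others that fell. Kcnq1, a voltage-gated potassium channel, rose from 4.52 and 3.77 TPM to 21.7 and 23.3 TPM (2.20), and the calcium-gated channel Trpm5 by 0.94. With the library centred on its median or scaled on ERCC, 7 were lower and 2 higher. Lower calls over all 9347 genes outside then numbered 713 and 607, against 884 in TPM.

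Slc2a2, the high-capacity glucose transporter GLUT2 of rodent beta cells, fell from 534 and 500 TPM in WT to 63.6 and 61.7 TPM in Med14 S983A (log2 difference −3.02, SE 0.05, limma adjusted p 5.2e-25), and the difference was −3.47 to −2.84 in treated cells. Of 16 glycolysis genes outside the runs, Slc2a2 and Pkm (−0.65) were lower and Aldoc (2.06) higher (18.8% called, against 15.2% of all genes outside). Among 38 genes of the pyruvate dehydrogenase complex, mitochondrial shuttles and TCA cycle none rose and 3 fell (7.89% called, below the 15.2% of all genes outside). Those that fell were the shuttle enzyme Gpd1, from 130 and 123 TPM to 23.2 and 24.3 TPM (−2.36), the malic enzyme Me3 (−1.26) and the dicarboxylate carrier Slc25a10 (−0.96). Without a fold minimum, 9 of the 38 were higher and 19 lower at an unadjusted p under 0.05. Of all 9347 genes outside, 2168 were higher and 3773 lower at a limma adjusted p under 0.05, a stricter threshold. The medians of both lists were −0.06 and −0.10.

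Lipid genes split by pathway. In cholesterol synthesis and uptake, 6 of 25 genes outside the runs were higher and none lower (5.76% and 9.46% of all genes outside), 21 differences were above 0, and the median of 0.32 was 0.39 above that of all genes. Srebf1, which codes for the sterol-regulated factor SREBP-1, rose from 61.7 and 56.3 TPM to 182 and 189 TPM (log2 difference 1.63, SE 0.04, limma adjusted p 6.2e-21). Insig1, which retains SREBP in the ER (0.92), the prenyl synthase Fdps (0.71), Tm7sf2 (0.67) and Lss (0.64) were also higher. In fatty acid synthesis and activation 4 of 19 were higher and 2 lower (31.6% called, against 15.2% of all genes outside). With ERCC scaling, by edgeR and by DESeq2, 7 were higher. Higher calls over all 9347 genes outside then numbered 925, 842 and 796, against 538 in TPM. Scd2, a stearoyl-CoA desaturase, rose from 698 and 674 TPM to 1837 and 1681 TPM (1.36). Fatty acid synthase, Fasn (1.06), the ligase Acsl4 (0.76) and the desaturase Fads1 (0.75) rose, and Acsl5 (−0.82) and the elongase Elovl7 (−0.80) fell. In fatty acid oxidation none of 20 rose and 4 fell, where 9.46% of all genes outside fell, with a median of −0.25. Cpt1a, which admits fatty acids to mitochondria, fell from 18.3 and 17.8 TPM to 7.14 and 6.96 TPM (−1.24). Acadsb (−1.64), Acaa2 (−1.09) and Acaa1a (−0.79) of the oxidation cycle also fell. At an unadjusted limma p under 0.05 without a fold minimum, 18 cholesterol genes were higher and 3 lower, and 12 oxidation genes were lower and 1 higher. The stricter adjusted p alone gave 2168 higher and 3773 lower of the 9347 genes outside. Relative to all genes the 3 list medians were 0.39, 0.26 and −0.18 in TPM and 0.40, 0.26 and −0.17 with ERCC scaling.

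**Figure D4:**
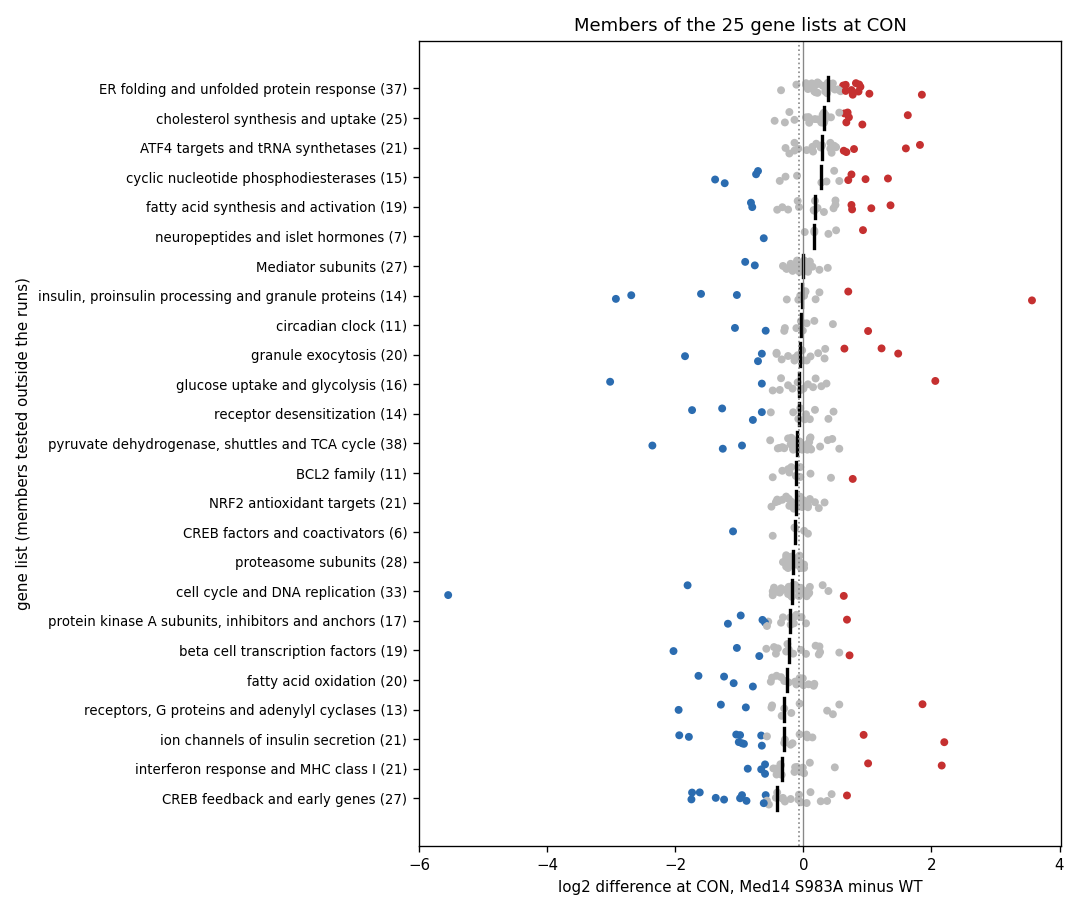
Log2 difference at CON (horizontal axis) of the members of each gene list tested outside the runs, with their number in brackets. Red and blue points were called higher and lower, grey points were not called, black bars are list medians, and the dotted line is the median of all genes outside the runs (−0.07). ER folding genes have the highest median (0.38) and CREB feedback genes the lowest (−0.41).

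Genes of protein folding in the ER had the highest median of the 25 lists in TPM, while by edgeR and DESeq2 the 7 neuropeptide and islet hormone genes had a higher one (0.50 against 0.47 and 0.49 against 0.45). Of 37 outside the runs, 11 were called higher and none lower (5.76% and 9.46% of all genes outside), 35 differences were above 0, and the median of 0.38 was 0.45 above that of all genes. Derl3, a channel subunit for disposal of misfolded proteins, rose from 6.14 and 6.55 TPM to 24.9 and 26.1 TPM (log2 difference 1.85, SE 0.06, limma adjusted p 3.1e-19). Hspa5, the main ER chaperone BiP, rose from 1051 and 1041 TPM to 1982 and 1816 TPM (0.86). The other 9 were Creld2 (1.03), Dnajb9 (0.89), Pdia6 (0.87), Hyou1 (0.82), Edem1 (0.77), Manf (0.75), Xbp1 (0.66), Sec61b (0.66) and Pdia4 (0.62). Hsp90b1, another abundant chaperone of the same compartment, was at 1312 and 1306 against 1419 and 1286 TPM, with overlapping groups. In treated cells Derl3 and Creld2 were called higher in all 6 comparisons, Hspa5 in 5 and Xbp1 in none. At an unadjusted limma p under 0.05 without a fold minimum, 30 of the 37 were higher and 2 lower. The stricter adjusted p alone gave 2168 higher and 3773 lower of the 9347 genes outside. The number called higher was 13 after median-centring and 17 with ERCC scaling. Higher calls over all 9347 genes outside also rose, from 538 in TPM to 708 and 925.

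The ER stress response element, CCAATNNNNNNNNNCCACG on either strand, is the site through which ATF6 and XBP1 are known to act, so the 250 bases before the start of each gene were searched for it in the RefSeq promoter table (build GRCr8). It was found for 4 of 9 higher genes with an entry (Hspa5, Creld2, Derl3 and Xbp1) and for 4 of 19 genes of the list that were not called (Hsp90b1, Calr, Canx and Dnajc3), against 0.0765% of all 27457 genes in the table. The motif was thus found among called and uncalled members alike. The promoters of the 4 higher genes are shown 5′ to 3′ with the element in capitals. Hspa5 lies at chr3:38452766-38453015 on the plus strand, Creld2 at chr7:121789134-121789383 on the plus strand, Derl3 at chr20:12766466-12766715 on the minus strand and Xbp1 at chr14:84604373-84604622 on the plus strand. The element ended 24 bases before the start in Hspa5, 46 in Xbp1, 126 in Creld2 and 135 in Derl3.
Hspa5: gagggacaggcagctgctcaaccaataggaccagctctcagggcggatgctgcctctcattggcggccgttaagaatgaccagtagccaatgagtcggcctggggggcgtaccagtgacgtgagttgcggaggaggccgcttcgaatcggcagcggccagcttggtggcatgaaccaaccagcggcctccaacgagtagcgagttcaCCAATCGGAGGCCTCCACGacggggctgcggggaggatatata
Creld2: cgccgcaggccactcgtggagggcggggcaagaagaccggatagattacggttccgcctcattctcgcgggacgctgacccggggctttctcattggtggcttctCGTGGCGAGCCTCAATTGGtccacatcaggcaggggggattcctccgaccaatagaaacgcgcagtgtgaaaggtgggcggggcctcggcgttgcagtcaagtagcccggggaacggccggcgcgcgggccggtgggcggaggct
Derl3: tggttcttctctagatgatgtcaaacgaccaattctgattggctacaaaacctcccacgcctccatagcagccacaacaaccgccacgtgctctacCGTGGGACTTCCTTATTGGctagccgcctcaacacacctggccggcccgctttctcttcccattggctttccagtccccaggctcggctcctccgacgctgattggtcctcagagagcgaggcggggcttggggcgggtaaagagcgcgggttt
Xbp1: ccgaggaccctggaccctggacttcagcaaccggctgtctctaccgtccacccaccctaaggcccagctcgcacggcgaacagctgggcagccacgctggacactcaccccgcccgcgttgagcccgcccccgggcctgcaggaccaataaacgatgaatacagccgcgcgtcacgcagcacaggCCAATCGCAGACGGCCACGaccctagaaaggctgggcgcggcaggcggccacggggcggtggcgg

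Some targets of ATF4, the factor of the amino acid and integrated stress response, were higher. Outside the runs, 5 of 21 were called higher and none lower (5.76% and 9.46% of all genes outside), with a median log2 difference of 0.29, which was 0.37 above that of all genes. With ERCC scaling 9 were higher and by edgeR 8, where 925 and 842 of the 9347 genes outside were higher, against 538 in TPM. Psph, a member in the chromosome 12 run, was lower (−1.30). In TPM and without a fold minimum, 15 were higher and 5 lower at an unadjusted p under 0.05. Chac1, which breaks down glutathione, rose from 3.04 and 2.65 TPM to 12.3 and 12.7 TPM (1.82), and the pseudokinase Trib3 from 1.60 and 2.30 TPM to 7.51 and 8.27 TPM (1.60). Shmt2 (0.79) and Psat1 (0.63) of serine and glycine synthesis and the cystine carrier Slc7a11 (0.67, at 0.900 TPM or less in all 4 libraries) were the others. Atf4 itself was at 271 and 277 against 376 and 360 TPM (0.42), under the fold minimum. Among 21 NRF2 targets and 28 proteasome subunits outside the runs, limma, edgeR and DESeq2 called none. At an unadjusted limma p under 0.05 without a fold minimum, 3 NRF2 targets were higher and 11 lower, and 22 proteasome subunits were lower. The stricter adjusted p alone gave 2168 higher and 3773 lower of the 9347 genes outside. The NRF2 and proteasome medians were −0.12 and −0.16 in TPM, where all genes outside had −0.07. With ERCC scaling they were 0.07 and 0.04, against 0.11.

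CREB feedback and early genes had the lowest median of the lists. Of 27 outside the runs, 10 were called lower and 1 higher, against 9.46% and 5.76% of all genes outside, and the median log2 difference of −0.41 was 0.34 below that of all genes. Fos and Junb of this list were followed by the study in the same cells, so the direction of the list is not independent evidence. The ERK phosphatase Dusp6 fell from 8.94 and 8.69 TPM to 2.05 and 1.80 TPM (−1.75), and Dusp4 from 15.8 and 11.6 TPM to 3.32 and 3.44 TPM (−1.74). The other 8 were the HLH inhibitors Id2 (−1.62) and Id4 (−1.37), the orphan receptor Nr4a1 (−1.24), the kinase Sik1, which restrains CREB coactivators (−0.99), Junb (−0.96), Dusp5 (−0.89), Fos (−0.62) and the clock gene Per1 (−0.59). Id3 rose by 0.68. Crem, whose short forms repress CREB targets, fell from 11.7 and 10.6 TPM to 5.48 and 3.97 TPM (−1.10), and was the 1 gene called among 6 CREB factors and coactivators. With ERCC scaling or median-centring 8 of the 27 were lower, where 607 and 713 of the 9347 genes outside were lower. None of the 27 was called with the CON sign in all 6 treated comparisons, and the values of Dusp6 ran from −1.05 to 0.25 there.

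The cAMP response element that CREB binds has the core TGACG, which was found on either strand within 250 bases before the start in 4 of 8 lower genes with a RefSeq entry and in 9 of 13 that were not called, against 5480 of all 27457 genes. The full palindrome TGACGTCA was found in none of the 8 and in 5 of the 13, against 490 of all. The palindrome contains the core. The promoters of 3 lower genes with the core are shown 5′ to 3′ with these in capitals, since they are among the best known targets of the pathway. The windows are chr7:134259888-134260137 on the plus strand for Nr4a1, chr20:9958647-9958896 on the minus strand for Sik1 and chr19:40080876-40081125 on the plus strand for Junb. They hold 4, 2 and 1 copies of it.
Nr4a1: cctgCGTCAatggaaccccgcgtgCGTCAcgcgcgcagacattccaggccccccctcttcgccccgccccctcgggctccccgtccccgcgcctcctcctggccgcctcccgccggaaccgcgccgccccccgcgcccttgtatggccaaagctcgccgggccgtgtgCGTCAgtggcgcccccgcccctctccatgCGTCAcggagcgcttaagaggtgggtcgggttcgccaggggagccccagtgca
Sik1: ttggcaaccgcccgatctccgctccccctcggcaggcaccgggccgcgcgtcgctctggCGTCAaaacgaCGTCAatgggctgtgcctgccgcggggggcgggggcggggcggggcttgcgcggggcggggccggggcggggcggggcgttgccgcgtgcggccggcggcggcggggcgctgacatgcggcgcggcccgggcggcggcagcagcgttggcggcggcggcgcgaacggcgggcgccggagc
Junb: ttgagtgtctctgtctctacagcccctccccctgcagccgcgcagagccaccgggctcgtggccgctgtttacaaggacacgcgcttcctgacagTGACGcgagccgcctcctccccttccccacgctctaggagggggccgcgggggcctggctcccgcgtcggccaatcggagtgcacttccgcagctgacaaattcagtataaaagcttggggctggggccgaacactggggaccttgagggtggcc

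The machinery that makes and removes cAMP shifted member by member. The GLP-1 receptor gene Glp1r was at 95.4 and 89.8 TPM in WT and at 88.9 and 89.1 TPM in Med14 S983A, a log2 difference of −0.06 (SE 0.04, limma adjusted p 0.19). The glucagon receptor gene Gcgr, whose transcript model is annotated as noncoding, fell from 140 and 141 TPM to 36.1 and 34.8 TPM (−1.95). Among adenylyl cyclases, Adcy5 rose from 2.06 and 1.63 TPM to 9.29 and 9.31 TPM (1.86), while Adcy8 fell from 20.7 and 19.8 TPM to 7.99 and 7.37 TPM (−1.29) and Adcy1 by 0.90. Of 15 phosphodiesterases, which degrade cyclic nucleotides, 4 were higher and 4 lower (53.3% called, against 15.2% of all genes outside). The split was 6 and 2 with ERCC scaling and 7 and 4 by edgeR and DESeq2. Over the 9347 genes outside, ERCC scaling gave 925 higher and 607 lower, edgeR 842 and 832, and DESeq2 796 and 862. Pde4a (1.32), Pde4c (0.97), Pde1b (0.75) and Pde1a (0.70) were higher, and Pde2a (−1.38), Pde7b (−1.23), Pde10a (−0.74) and Pde4d (−0.71) lower. The protein kinase A inhibitor Pkib (−1.18), the anchors Akap13 (−0.98) and Akap7 (−0.64) and the regulatory subunit Prkar2a (−0.60) were lower, and the anchor Akap12 higher (0.68). Of the 4 lower calls among 17 genes of this list, 2 were left with median-centring or ERCC scaling, where Akap7 had −0.55 and −0.46. Of 14 genes of receptor desensitization outside the runs, 4 were called (28.6%, against 15.2% of all genes outside). These 4 were all lower and all code for regulators of G protein signaling. They were Rgs16, from 122 and 117 TPM to 35.3 and 34.8 TPM (−1.74), Rgs17 (−1.27), Rgs10 (−0.79) and Rgs7 (−0.65).

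Few Mediator subunits passed the fold minimum. Of 27 outside the runs, 2 were called (7.41%, below the 15.2% of all genes outside), both lower, and the median log2 difference was −0.01. At an unadjusted limma p under 0.05 without a fold minimum, 10 were lower and 3 higher. The stricter adjusted p alone gave 3773 lower and 2168 higher of the 9347 genes outside. Med19 was at 59.2 and 56.3 TPM in WT and at 30.1 and 30.5 TPM in Med14 S983A (−0.91). Cdk8, the kinase of the Mediator kinase module, was at 103 and 104 against 62.2 and 59.0 TPM (−0.76). Its module partners Med12, Med13 and Ccnc and its paralog Cdk19 had differences of −0.32 to 0.01 and were not called. The study also fused a FLAG tag to Med19 in some lines, and the labels do not say whether these cells carry it. With ERCC scaling the call of Cdk8 was lost. A further 2 subunits were called within runs, Med21 (−1.07) and Med15 (0.65), at 0.08 below and 0.09 above the median of their runs.

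Of 19 transcription factors of beta cell identity outside the runs, 3 were lower and 1 higher (21.1% called, against 15.2% of all genes outside). Sox4, which acts in endocrine development, fell from 81.5 and 85.4 TPM to 20.1 and 19.3 TPM (log2 difference −2.03). Foxa3 (−1.04) and Hnf4a (−0.69) fell, and Mnx1 rose by 0.72. Pdx1, which binds the insulin promoter, was at 292 and 291 against 324 and 342 TPM (0.19), and Neurod1 had −0.04. Cell cycle genes showed 3 calls of 33 outside the runs (9.09%, below that share of 15.2%), Ccnd2 (−5.55), the kinase inhibitor Cdkn1a (−1.81) and Cdk6 (0.63, at 1.84 TPM or less). Of 21 genes of the interferon response and MHC class I outside the runs, 28.6% were called, against 15.2% of all genes outside. Usp18 (2.16) and Mx2 (1.01) were higher and RT1-A2 (−0.87), Ifi27 (−0.66), RT1-A1 (−0.60) and Irf7 (−0.60) lower. The class I genes are close copies, and only 1 of these 4 lower calls was left after median-centring. In the BCL2 family of survival factors Bcl2l2 was higher (0.77), in the clock list Npas2 was higher (1.01) and Bhlhe40 (−1.07) and Per1 lower, and among neuropeptides Sct, the secretin gene, was higher (0.93) and Penk lower (−0.62, under 1 TPM in all 4 libraries).

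**Figure D5:**
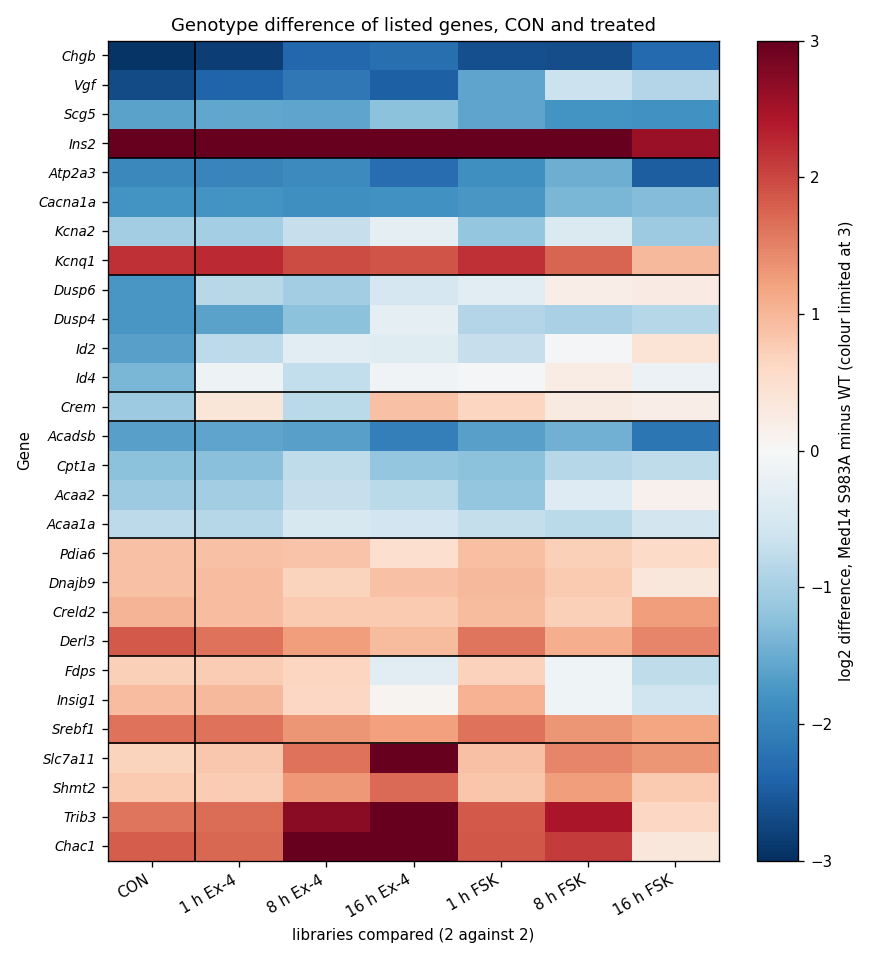
Log2 difference between Med14 S983A and WT (colour, limited at 3) at CON and in the 6 treated comparisons (columns) for named genes outside the runs (rows), grouped by list from granule genes at the top to ATF4 targets at the bottom. Granule and channel genes such as Chgb and Atp2a3 keep their colour in every column, while Crem is blue at CON (−1.10) and ranges from −0.81 to 0.88 in treated columns.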

How the data were processed

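Per the labels and the study's methods, the authors added ERCC spike-in RNA to total RNA, made stranded libraries, aligned paired reads to rn6 with STAR 2.5.3a and made the deposited TPM values over exons with HOMER 4.11.1. DESeq2 1.24.0 is named for their own calls, which were not used here. A second deposited table holds counts of the 92 ERCC sequences made by the authors. Of 19131 transcripts, the 1 with the highest mean TPM was kept for each of 17455 symbols, and the 10275 genes that averaged 1 TPM or more over the 28 libraries were tested. log2(TPM + 1) was fitted with limma 3.58.1 in R 4.3.3 (two-sided, Benjamini-Hochberg over all tested genes), with 1 mean for each of 14 groups of 2 libraries and a spread estimated over all groups (14 residual degrees of freedom, 2 with the CON libraries alone). Read counts could be recovered from TPM, with 2 reads to a fragment. The check covered 124685 values under 1000 reads for which the rounding of TPM mattered little. All of these (100%) lay near a whole number of reads, within 0.05 plus an allowance for that rounding. edgeR 4.0.16 (2281 genes called) and DESeq2 1.42.0 were run on the recovered counts as alternatives. Other alternatives were the added TPM, the filter on level, median-centring, ERCC scaling, the fold minimum, the run settings, a replicate block and leaving out each library. Scripts were tested on simulated data.

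Named were Med14, up to 4 called genes in each of 25 lists with the largest difference and no overlap of the groups, all called genes where a sentence gives them, and defining genes that were not called. Outside the runs the 12 largest rises and 12 largest falls among genes at 10 TPM or more were also named. So were the 6 largest of each in TPM. In each run up to 2 genes were named, the furthest in its direction among called genes at 10 TPM or more. Members and lists were chosen with earlier results of these data known. Intervals were not computed, and depth limits genes at a few fragments. Promoters came from RefSeq (GRCr8). A few items are not reported here.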

Additional observations from a re-analysis of the deposited data

Results flagged for a closer look

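For 10 named or listed genes the genotype difference in a treated comparison was called in the direction opposite to CON. The change from CON also had a limma interaction adjusted p under 0.05. These genes are listed for both reasons. Since the opposite calls and the interaction test chose them, the changes below are a description in log2 units, and no p-value is given as support. Nr4a1 went from −1.24 at CON to 1.05 at 16 h of Ex-4, a change of 2.29. At the same time Crem changed by 1.98 (−1.10 to 0.88), Nfil3, a clock repressor, by 1.72 (−1.11 to 0.60) and Fos by 1.70 (−0.62 to 1.08). Nfil3 is a gene of a chromosome run. Crem also changed by 1.74 at 1 h of FSK, where it stood at 0.65. Under FSK, Akap7 changed by 1.43 at 8 h and 1.44 at 16 h, and Scn3a by 1.25 at 16 h. Psph, of serine synthesis and in the chromosome 12 run, changed by 2.01 at 8 h of FSK (−1.30 to 0.71). The higher level at CON was turned for Pcsk1, by −1.32 at 8 h and −1.60 at 16 h of FSK, for Insig1, by −1.53 at 16 h of FSK, and for Fdps, by −1.47 at 16 h of FSK. Groups of 2 libraries are too small for a search for single outlying samples.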

How the results depend on the processing

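Over 16 alternative settings, 2105 of 2181 values of 137 named genes kept their direction and call, 76 lost the call and none changed direction, and 39 genes lost a call at least once. Higher genes numbered 1336 (925 outside the runs) with ERCC scaling and 1542 (1121 outside) by DESeq2 with ERCC size factors, and edgeR gave 842 higher outside the runs. Without a fold minimum 6802 genes were called (2650 higher and 4152 lower), 5941 of them outside the runs (2168 and 3773), and 818 and 1365 of these were also called in all 6 treated comparisons. With a fold above 2 the counts were 826 (329 and 497), 603 outside (210 and 393), and 72 and 156 in all 6. With a run threshold of 0.2 there were 16 runs. Leaving out a library gave 844 to 896 higher and 1093 to 1223 lower genes, and 536 to 572 and 835 to 960 outside the runs. Without WT replicate 1 the calls of Penk (−0.54) and Per1 (−0.51) were lost, without WT replicate 2 that of Cdk6 (0.42), without Med14 S983A replicate 1 that of Per1 (−0.58), and without Med14 S983A replicate 2 those of Cdk6 (0.51) and Rgs7 (−0.54). The cause was not tested. With a replicate block 852 genes were higher and 1146 lower. Same-numbered libraries of the CON groups had deviations with r −0.03 (−0.28 to 0.283 over 91 pairs of groups). With 2 libraries per group, these values cannot tell whether same-numbered libraries shared a culture, line or batch. Of list medians 306 of 350, and of list counts 645 of 800, moved less than the limits set for them.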
